A study of Rattus norvegicus with 200 samples.

Results

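The SR splicing factors are a family of RNA-binding proteins, and the 10 genes described here are Srsf1, Srsf2, Srsf3, Srsf4, Srsf5, Srsf6, Srsf7, Srsf9, Srsf10 and Srsf11. They were chosen by gene symbol, and all 10 were found among the 20361 genes of the count table and among the 14393 genes that passed the filter on low counts. The family was put forward with its values over these diets, schedules and times known. Members' differences are therefore given as a description, and their place above or below a threshold is read as no evidence about the family. The 200 bulk RNA libraries came from brain cells labelled microglia, isolated from adult male wild-type Wistar rats, an outbred laboratory strain. A high-fat diet (HFD) with food in the light phase only (33 libraries), in the dark phase only (33) or ad libitum (34) was compared with chow on the same schedules (33, 33 and 34 libraries). Each of these 6 groups was sampled at 6 Zeitgeber times (ZT, hours on the light cycle: 2, 6, 10, 14, 18 and 22), and each combination of group and time held 5 to 7 libraries. The labels used here give neither the fat content of the diet nor its length, and they do not say that each library came from a separate rat, so every test measures the spread between libraries.

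SR proteins carry RNA recognition motifs and a tail rich in arginine and serine. They bind short sequences in exons and introns, help the spliceosome choose splice sites, and several of them also accompany the spliced message out of the nucleus. The serines of the tail are phosphorylated by SRPK kinases in the cytoplasm and CLK kinases in the nucleus, and transportin 3 carries the phosphorylated proteins into the nucleus. Many SR genes hold a poison exon whose inclusion sends their own message to nonsense-mediated decay, so the RNA of one gene can be a mixture of coding and decaying forms. The counts used here are totals per gene and do not separate those forms.

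Total counts per library ran from 3.78 to 11.64 M, with a median of 7.55 M. Of 20 microglial marker genes, 19 were in the table (Fcrls was not used here) and none of the 19 was at 0 in every library. Their summed level was 1320 to 2662, 1422 to 2788 and 1299 to 2932 CPM (a gene's count relative to its library's scaled total) in HFD light-feeding, dark-feeding and ad libitum libraries, and 1837 to 3914, 1294 to 3830 and 1313 to 4484 CPM in chow libraries on the same schedules. The 12 oligodendrocyte markers, all in the table, summed to 12540 to 22780, 10990 to 22640 and 12900 to 26820 CPM in those HFD groups, and to 10630 to 21540, 10370 to 21780 and 8809 to 23530 CPM in those chow groups. The 15 neuronal markers, all in the table, summed to between 4337 and 7163 CPM over all libraries. Messenger RNA of other brain cells was thus abundant under the microglia label, and in such bulk RNA fewer cells of a type cannot be told apart from less RNA per cell.

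Per transcript length, Srsf5 was the most abundant member, at 700.1 ± 57.3 FPKM (fragments scaled by transcript length and library size; SD over 200 libraries). Srsf2, a regulator that stays largely in the nucleus, followed at 434.3 ± 30.6 FPKM. The export adaptors Srsf7 and Srsf1 had 164.3 ± 12.2 and 144.1 ± 13.2 FPKM. Srsf11, an atypical member, had 127.6 ± 9.63 FPKM, next to Srsf6 with 126.2 ± 9.63 FPKM. Low levels were seen for Srsf4 (54.6 ± 7.87 FPKM), Srsf3, the smallest SR protein (45.3 ± 4.15 FPKM), Srsf10 (38.0 ± 5.39 FPKM) and Srsf9, a close relative of Srsf1 (34.9 ± 3.98 FPKM). The steps from Srsf5 to Srsf2, from Srsf2 to Srsf7 and from Srsf6 to Srsf4 were the only ones at which the SD ranges of neighbours in this order did not overlap, and each of these held in 200 of 200 libraries. Srsf11 stood above Srsf6 in 103 of 200 libraries, so that pair had no order. Taking the median in place of the mean left all 10 ranks as they were.

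As CPM, which is not scaled by length and was used for every comparison between groups, members averaged between 28.6 (Srsf9) and 1149 (Srsf2). The lowest count of any member in any library was 101, for Srsf9, at which counting error alone is 9.95%. Among libraries of one group and time the coefficient of variation was 6.44% for Srsf11 and 6.49% for Srsf2, and it was largest for Srsf10, at 12.1%. The plot of all libraries shows that the groups overlapped for every member.

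**Figure D1:**
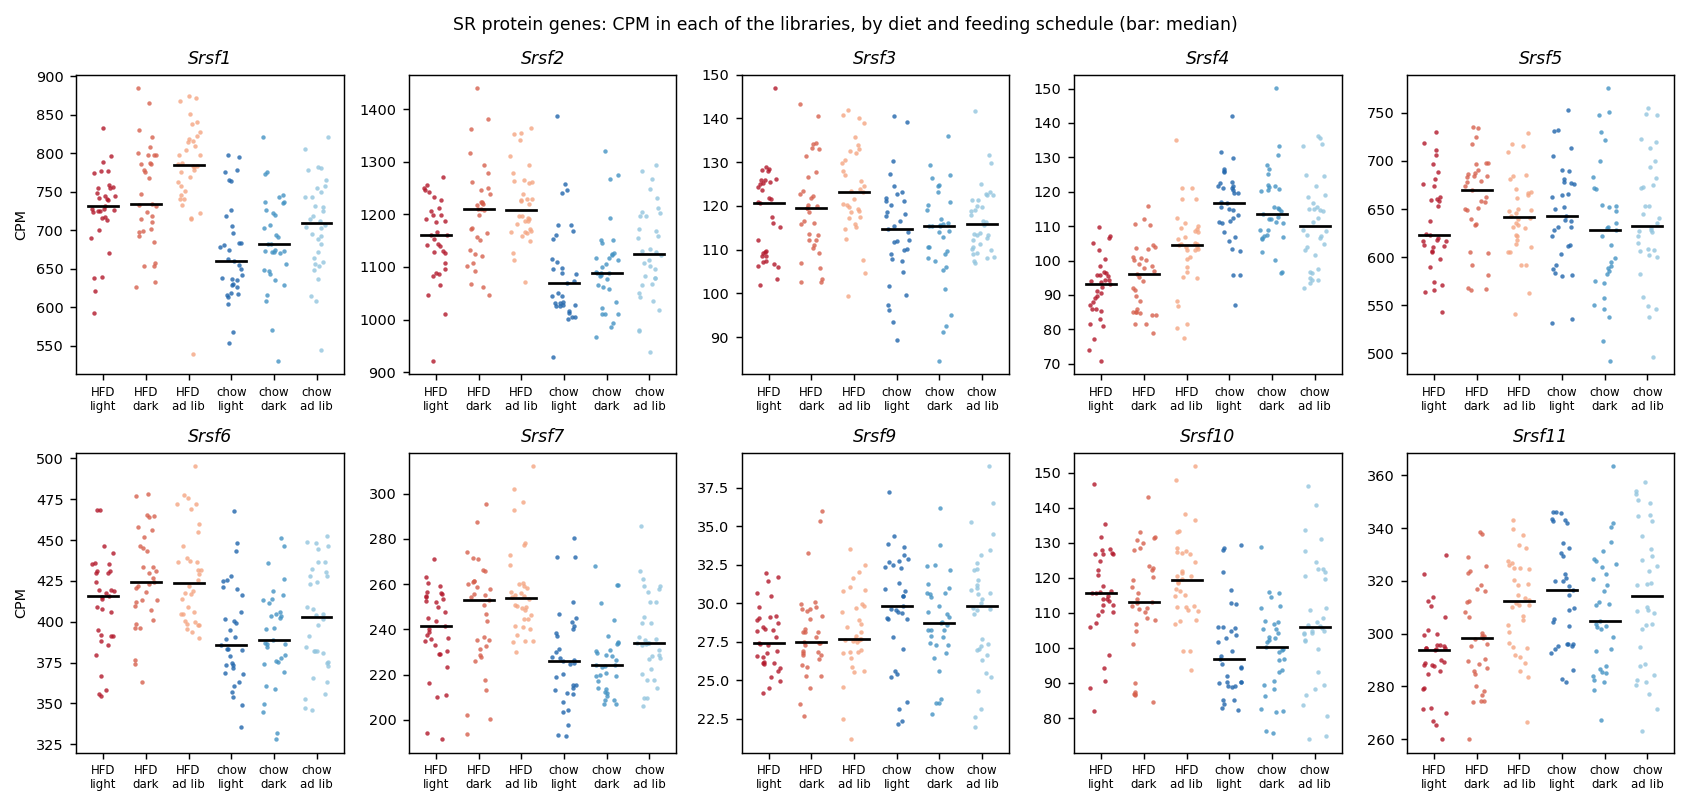
CPM of each SR protein gene (1 panel each, linear axis that does not start at 0) in the 200 libraries, by group, with HFD groups left of chow groups; each point is 1 library and the bar is the group median. Srsf4 medians were 93.2, 96.2 and 104.5 CPM in the HFD groups and 116.8, 113.4 and 110.0 CPM in the chow groups, and the points of the 6 groups overlap in every panel.

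Promoter sequence shows what the members have next to their start sites. Windows of 250 bases before the annotated start were taken from RefSeq (assembly GRCr8, which is not the build the counts were made on) for all 10 members. Srsf10 had a pair of annotated starts, which gave 11 windows. Those printed are Srsf4 and Srsf10, whose levels went in opposite directions, and Srsf6 and Srsf7, whose levels went together most closely. They run 5′ to 3′ on the strand of the gene, and capitals mark letters found on either strand for 7 motifs: the CCAAT box by its own letters, the TATA box as TATAAA, the GC box as GGGCGG, the ETS motif as CCGGAA, the CRE core as TGACGT, the E-box as CACGTG and the heat shock element as GAANNTTC. One GC box and the ETS motif of Srsf7 overlap.
Srsf4 (chr5:149345288-149345537, plus strand): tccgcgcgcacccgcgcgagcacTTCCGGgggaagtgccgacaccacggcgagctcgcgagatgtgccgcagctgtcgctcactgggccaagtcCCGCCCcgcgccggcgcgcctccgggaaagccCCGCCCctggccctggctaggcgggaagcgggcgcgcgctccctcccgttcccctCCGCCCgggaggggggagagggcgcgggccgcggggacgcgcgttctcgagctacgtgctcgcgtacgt
Srsf10 (chr5:153372066-153372315, plus strand): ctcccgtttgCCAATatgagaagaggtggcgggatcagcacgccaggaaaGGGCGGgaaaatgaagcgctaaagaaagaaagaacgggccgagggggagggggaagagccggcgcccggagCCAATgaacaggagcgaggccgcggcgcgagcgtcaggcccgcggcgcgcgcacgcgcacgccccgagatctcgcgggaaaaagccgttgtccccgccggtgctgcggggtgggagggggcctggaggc
Srsf6 (chr3:172008822-172009071, plus strand): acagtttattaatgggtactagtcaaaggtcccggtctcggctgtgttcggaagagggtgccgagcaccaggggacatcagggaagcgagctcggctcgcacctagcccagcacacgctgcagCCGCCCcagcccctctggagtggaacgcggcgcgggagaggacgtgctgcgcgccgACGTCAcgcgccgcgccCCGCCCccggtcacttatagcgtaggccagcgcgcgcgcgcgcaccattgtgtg
Srsf7 (chr6:20563802-20564051, plus strand): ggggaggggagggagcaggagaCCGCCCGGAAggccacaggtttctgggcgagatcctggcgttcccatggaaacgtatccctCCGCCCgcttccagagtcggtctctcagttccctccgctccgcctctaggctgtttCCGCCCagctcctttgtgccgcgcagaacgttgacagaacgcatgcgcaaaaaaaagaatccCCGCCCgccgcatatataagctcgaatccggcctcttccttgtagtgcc
Srsf4 and Srsf10 lie on the same strand of chromosome 5. Srsf4 has 3 GC boxes and an ETS match in its window, and Srsf10 has a GC box and CCAAT matches that Srsf4 lacks. Srsf6 has a CRE core and Srsf7 an ETS match.

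A GC box was found in 8 of the 11 windows (30.5% of all 33469 RefSeq windows of this length held one), and an ETS motif in 5 (12.6% of all). A CRE core was found in 5 windows, those of Srsf1, Srsf3, Srsf5, Srsf6 and Srsf11 (6.95% of all). CCAAT occurred in 5 windows, of Srsf1, Srsf2, Srsf3 and both Srsf10 starts (34.0% of all), and TATAAA in those of Srsf2 and Srsf3 (12.9% of all). The E-box, the motif that clock activators bind, occurred only in Srsf3 (5.59% of all) and the heat shock element only in Srsf5 (7.23% of all). The Srsf4 window had the highest GC content, 77.2%, and the second Srsf10 start the lowest, 37.6%, against a median of 51.2% over all windows. All member windows but that start had at least 58.8% GC. They held 17 to 42 CG pairs, against a median of 5 over all windows. The letters of the GC box, ETS motif and CRE core each hold a CG pair. The shares of all windows were not matched for base composition, so they do not set the members apart from other GC-rich windows. These matches describe letters and show no binding.

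HFD and chow were first set against each other within each feeding schedule, which asks how the diet goes with gene expression. Most SR genes were slightly higher on HFD, Srsf4 was lower, and no member differed by 1.5-fold in any schedule. The threshold was an adjusted p of 0.05 in edgeR's quasi-likelihood test over all 14393 genes. In light-feeding, 8 of 10 members lay past it, where 50.3% of all genes did; 5 were higher (25.2% of all genes) and 3 lower (25.1%). In dark-feeding, 8 lay past it against 45.9% of all genes, 7 higher (22.8% of all genes) and 1 lower (23.1%). Ad libitum, 6 lay past it against 20.1% of all genes, all of them higher (9.96% of all genes; 10.1% were called lower). The median log2 fold change of the members (HFD minus chow) was 0.06, 0.10 and 0.08 in light-feeding, dark-feeding and ad libitum, and that of all genes was -0.01 in each.

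Srsf4, whose protein has the longest arginine and serine tail of the classical members, differed most of the 10 in light- and dark-feeding, but not ad libitum. In light-feeding it had a lowest, median and highest level of 70.9, 93.2 and 109.7 CPM in HFD libraries, against 87.2, 116.8 and 141.9 CPM in chow libraries. Most HFD libraries lay below most chow libraries, though the ranges overlapped. Its log2 fold change was -0.34 ± 0.04 (SE), a level 20.8% lower on HFD, with the HFD mean below the chow mean at 6 of 6 times. In dark-feeding the levels were 78.9, 96.2 and 116.0 CPM in HFD libraries and 96.5, 113.4 and 150.1 CPM in chow libraries, and the log2 fold change was -0.27 ± 0.03, again with 6 of 6 times lower on HFD. Ad libitum the levels were 77.5, 104.5 and 135.0 CPM in HFD libraries and 92.0, 110.0 and 136.1 CPM in chow libraries. That log2 fold change, -0.10 ± 0.04, did not pass the threshold and was negative at 4 of 6 times. For Srsf4, and for Srsf11 as given further on, the diet difference moved with the schedule. The Srsf4 diet effect in light-feeding minus that ad libitum was -0.24 ± 0.05 on the log2 scale, past the threshold for that interaction (9.81% of all genes were, 5.98% higher and 3.84% lower). The same difference for dark-feeding was -0.18 ± 0.05 and did not pass (0.792% of all genes did, 0.236% higher and 0.556% lower). No member passed that interaction in edgeR's test or in DESeq2, and 1 member was under an unadjusted p of 0.05, as were 2086 genes. Title number, the number in a library's title, was not a covariate in either interaction test. HFD dark- and light-feeding libraries had numbers from 47 up, and 28 of 34 HFD ad libitum libraries had numbers up to 46. Those 28 had 95.25 to 135.0 CPM of Srsf4, and the other HFD ad libitum libraries had 77.5 to 94.93 CPM. Schedule and title number cannot be told apart in these interactions.

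Srsf10, which represses splicing when its tail is dephosphorylated, went the other way. Its levels in light-feeding were 81.9, 115.6 and 146.9 CPM (lowest, median and highest) in HFD libraries and 82.3, 96.8 and 129.3 CPM in chow libraries. The medians stood apart while both groups covered nearly the same span. Log2 fold changes were 0.21 ± 0.04 in light-feeding, 0.18 ± 0.04 in dark-feeding and 0.16 ± 0.05 ad libitum, all past the threshold. The ratio of Srsf10 to Srsf4 CPM within a library gathers both genes. Its median was 1.28, 1.16 and 1.13 in HFD light-feeding, dark-feeding and ad libitum libraries, against 0.844, 0.843 and 0.949 in the chow groups on the same schedules. Srsf10 exceeded Srsf4 in 29 of 33, 26 of 33 and 28 of 34 HFD libraries, and in 9 of 33, 6 of 33 and 15 of 34 chow libraries. Srsf10 varied with depth, its correlation with log2 total count being -0.36 over 200 libraries with group and time means removed, and median totals of the 6 groups ran from 7.32 to 7.96 M. The part of depth in the Srsf10 difference was not tested.

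**Figure D2:**
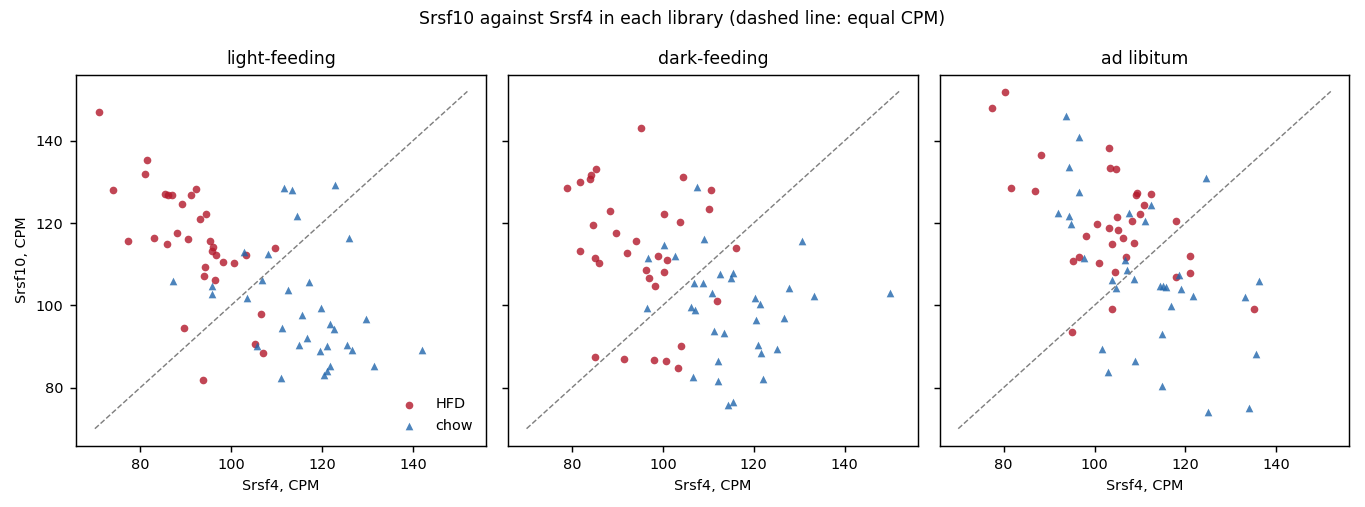
Srsf10 CPM (vertical) against Srsf4 CPM (horizontal) in each library, 1 panel per schedule, HFD as circles and chow as triangles; the dashed line marks equal CPM. In light-feeding 29 of 33 HFD libraries and 9 of 33 chow libraries lie above the line, and ad libitum 28 of 34 and 15 of 34 do.

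The export adaptors were higher on HFD. Srsf1 averaged 727.7 ± 50.7, 745.4 ± 65.5 and 782.9 ± 61.5 CPM in HFD light-feeding, dark-feeding and ad libitum libraries, against 672.1 ± 63.9, 685.4 ± 59.7 and 707.1 ± 59.9 CPM in chow libraries (SD). Its log2 fold changes of 0.12 ± 0.03, 0.12 ± 0.03 and 0.15 ± 0.03 all passed the threshold, and the HFD mean was higher at 5, 6 and 6 of 6 times. Srsf7 had log2 fold changes of 0.08 ± 0.03, 0.12 ± 0.03 and 0.12 ± 0.03 in the same order, all past the threshold. In light-feeding it stayed past it under 6 of 12 alternative ways of processing. When FPKM replaced counts the Srsf7 values were -0.032, 0.035 and 0.045, none of them past the threshold. Srsf3 was past the threshold in dark-feeding (0.08 ± 0.03) and ad libitum (0.08 ± 0.03), and in light-feeding its value was 0.05 ± 0.03. It no longer passed under 5 of 11 alternative ways of processing in dark-feeding and 4 of 12 ad libitum. Over these genes and schedules the HFD level was between 3.8% and 10.9% higher.

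Srsf2 averaged 1153 ± 77.2, 1202 ± 92.0 and 1221 ± 71.2 CPM in HFD light-feeding, dark-feeding and ad libitum libraries, and 1092 ± 95.0, 1099 ± 80.5 and 1128 ± 88.7 CPM in chow libraries. Its log2 fold changes were 0.08 ± 0.03, 0.13 ± 0.02 and 0.11 ± 0.03, and those of Srsf6, which promotes exon inclusion, were 0.07 ± 0.03, 0.13 ± 0.03 and 0.09 ± 0.02; both genes passed the threshold in all 3 schedules. Srsf5, the most abundant member per length, had the smallest difference of the 10 in light-feeding and ad libitum. It averaged 635.8 ± 48.8, 658.8 ± 47.8 and 643.6 ± 42.4 CPM in HFD libraries and 644.7 ± 54.0, 627.4 ± 70.1 and 640.4 ± 63.6 CPM in chow libraries, and passed only in dark-feeding, at 0.07 ± 0.03. There it no longer passed under 7 of 11 alternative ways of processing.

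Srsf9 and Srsf11 leaned the other way. Srsf11 had levels of 260.1, 293.8 and 330.0 CPM (lowest, median and highest) in HFD light-feeding libraries and 281.6, 316.7 and 346.2 CPM in chow light-feeding libraries. Its log2 fold change there was -0.12 ± 0.02, past the threshold, with the HFD mean lower at 6 of 6 times. In dark-feeding and ad libitum it was -0.04 ± 0.03 and -0.01 ± 0.03, neither past the threshold, and the interaction of diet with light-feeding was -0.10 ± 0.03, past it. Srsf9 passed in light-feeding at -0.09 ± 0.04 and did not pass at -0.04 ± 0.03 in dark-feeding and -0.08 ± 0.04 ad libitum. As Srsf2, Srsf1 and Srsf5 hold most of the family's counts, the sum of all 10 followed them: 3813 ± 202, 3936 ± 213 and 4020 ± 198 CPM in HFD light-feeding, dark-feeding and ad libitum libraries, against 3703 ± 246, 3694 ± 207 and 3793 ± 239 CPM in chow libraries.

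**Figure D3:**
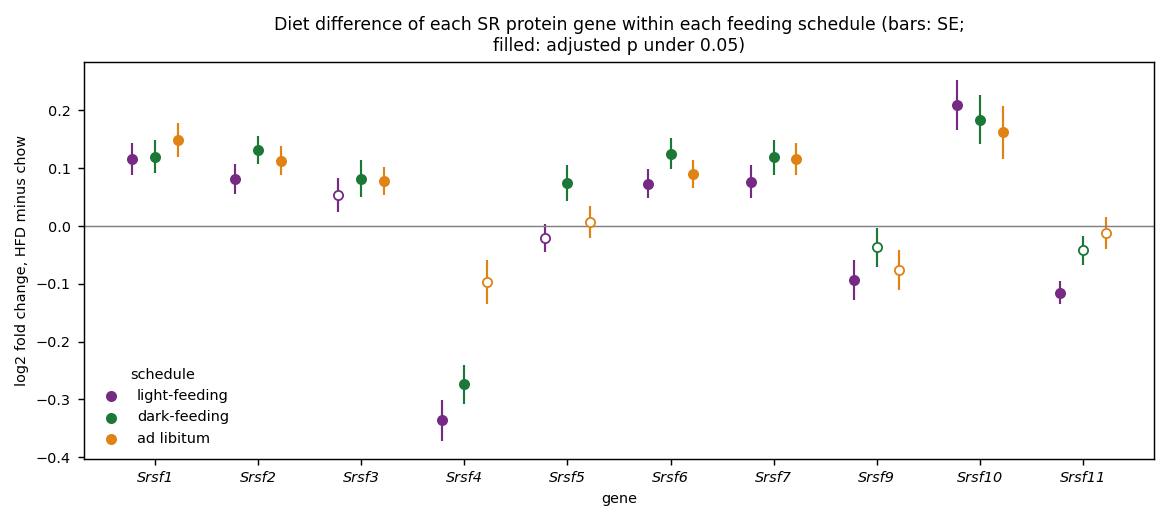
Log2 fold change of each SR protein gene, HFD minus chow, within light-feeding, dark-feeding and ad libitum; bars are the SE of the fit, and filled points passed an adjusted p of 0.05 over all genes. Srsf4 reaches -0.34 in light-feeding and -0.27 in dark-feeding, while Srsf10 lies between 0.16 and 0.21.

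Marker levels moved with diet as well. The oligodendrocyte sum had medians of 17020, 16220 and 16110 CPM in HFD light-feeding, dark-feeding and ad libitum libraries, against 14310, 14450 and 15210 CPM in the chow groups. The microglial sum had medians of 2022, 1856 and 1945 CPM on HFD and 2209, 2368 and 2221 CPM on chow. Mural markers, the cells around vessels, had median sums of 77.3, 78.0 and 78.6 CPM in those HFD groups and 95.8, 94.1 and 86.3 CPM in the chow groups, and endothelial markers had 139.5, 144.1 and 142.0 CPM on HFD and 165.3, 163.1 and 153.0 CPM on chow. Both medians were lower on HFD in every schedule, as was the median of Srsf4. Erythrocyte markers had medians of 164.2, 227.3 and 175.5 CPM on HFD and 265.4, 497.2 and 359.6 CPM on chow. Astrocyte markers had 759.4, 725.7 and 812.4 CPM on HFD and 1007, 907.5 and 769.9 CPM on chow, so they were lower on HFD in light- and dark-feeding and higher ad libitum. The ranges of both diets overlapped for each of these lists. With 6 marker scores of other cell types as covariates, 3, 1 and 0 members lay past the threshold in light-feeding, dark-feeding and ad libitum; the 3 were Srsf4, Srsf9 and Srsf11 and the 1 was Srsf4. With them, the Srsf4 log2 fold change was -0.29, -0.24 and -0.06 in those schedules, and that of Srsf2 in light-feeding turned to -0.02. That of Srsf10 was 0.194, 0.074 and 0.095 in the same order, none past the threshold. In light-feeding Srsf3, which had not passed, turned to -0.03 with them, and Srsf9 went to -0.18. The Srsf7 difference in light-feeding turned to -0.03 when FPKM replaced counts, and did not pass. Each diet had its own series of title numbers, so diet cannot be told apart from whatever those numbers order.

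Feeding schedule was compared next, within each diet, to ask what restricting food to one phase goes with. On chow no member passed the threshold of edgeR's test in any of the 3 schedule comparisons. For dark-feeding against ad libitum 0% of all genes passed; at an unadjusted p of 0.05 it was 2 members and 1698 genes, and DESeq2 called 0 members and 1 gene. For light-feeding against ad libitum 1.6% of all genes passed (0.528% higher, 1.07% lower); 3 members and 2731 genes were under an unadjusted p of 0.05, and DESeq2 called 0 members and 410 genes. For light-feeding against dark-feeding 0% of all genes passed; unadjusted it was 0 members and 620 genes, and DESeq2 called 0 of both. The chow differences with the largest size were those of Srsf10, -0.12 ± 0.05 for dark-feeding (95% interval -0.21 to -0.02) and -0.11 ± 0.05 for light-feeding (-0.21 to -0.01) against ad libitum.

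On HFD, light-feeding went with lower SR gene levels than ad libitum feeding. All 10 log2 fold changes were negative and 5 lay past the threshold (10.7% of all genes; 5.7% were called higher and 5% lower): Srsf4 at -0.18 ± 0.04, Srsf1 at -0.10 ± 0.03, Srsf7 at -0.10 ± 0.03, Srsf11 at -0.10 ± 0.02 and Srsf2 at -0.08 ± 0.02. Each of the 5 had a lower mean in light-feeding at 6 of 6 times. For Srsf1 the lowest, median and highest levels were 593.2, 730.9 and 832.6 CPM in HFD light-feeding libraries and 538.9, 784.8 and 874.0 CPM in HFD ad libitum libraries, so the centre shifted while the ranges overlapped. For dark-feeding against ad libitum on HFD, Srsf4 alone passed, at -0.13 ± 0.04 (4.7% of all genes; 1.72% called higher and 2.98% lower). Light-feeding against dark-feeding gave 0 members past edgeR's threshold (0.0834% of all genes, 0.0486% higher and 0.0347% lower); 2 members and 1574 genes were under an unadjusted p of 0.05, and DESeq2 called 0 members and 91 genes. Title numbers moved with these schedules: 28 of 34 HFD ad libitum libraries had numbers below 47, the lowest number among HFD dark- and light-feeding libraries. With title number as a smooth covariate, 0 members passed in either comparison with ad libitum feeding, so schedule and title number cannot be told apart there. These comparisons, and those of diet, share libraries of the same groups.

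Daily rhythm was fitted as a 24-h cosine, first over all 6 groups with a mean for each group. In this common fit, daily differences of SR genes were small. Of the 10 members 5 lay past the threshold, against 41% of all genes, and their peak-to-trough differences were 0.09 to 0.12 on the log2 scale, where the median of all genes was 0.11. Srsf3 peaked at ZT 17.2 ± 0.9 h (SE) and differed by 0.11 ± 0.03 between peak and trough. Srsf5, Srsf6 and Srsf9 peaked close to it, at ZT 18.0 ± 1.0, 17.2 ± 0.9 and 17.1 ± 1.2 h. Srsf10 had its peak at ZT 7.5 ± 1.2 h, with 0.12 ± 0.04 between peak and trough, on the opposite side of the day in this fit. That did not hold in every group. In chow light-feeding Srsf10 and Srsf9 peaked at ZT 14.9 ± 1.3 and 9.9 ± 1.5 h, though neither passed there. Mean Srsf3 over all groups was 113.4, 113.6, 116.9, 119.4, 122.3 and 119.9 CPM at ZT 2, 6, 10, 14, 18 and 22, with an SD of 8.99 to 11.7 CPM at each time. Mean Srsf10 was 110.6, 109.2, 116.6, 108.6, 102.1 and 108.8 CPM at those times, with an SD of 13.5 to 17.6 CPM. The common fit gives all groups 1 peak time, so groups that peak at different times can cancel in it. Srsf1 had 0.009 ± 0.025 between peak and trough there and 0.093 to 0.228 within single groups, with SEs of 0.053 to 0.062. Only the 0.228 of chow light-feeding passed. A peak-to-trough size cannot fall below 0, so noise alone raises it in smaller sets of libraries. Whether groups cancelled for Srsf1 was not tested. In chow ad libitum Srsf10 and Srsf9 had 0.30 ± 0.11 and 0.28 ± 0.08, neither past the threshold. Within groups the median of all genes was 0.144 to 0.242.

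Within single groups different members passed. In chow light-feeding 5 members lay past the threshold (20.3% of all genes), namely Srsf1, Srsf2, Srsf3, Srsf4 and Srsf11. Srsf1, Srsf2 and Srsf3 peaked there at ZT 14.1 ± 1.0, 17.1 ± 0.9 and 18.8 ± 1.0 h with 0.22 to 0.24 between peak and trough on the log2 scale, and Srsf4 peaked at ZT 8.4 ± 1.2 h with 0.21 ± 0.06. In HFD ad libitum Srsf3, Srsf6 and Srsf9 passed (19.6% of all genes), with peaks at ZT 17.1 ± 1.0, 16.5 ± 0.8 and 18.8 ± 1.0 h. In HFD dark-feeding it was Srsf2 and Srsf4 (27.5% of all genes), with peaks at ZT 7.7 ± 0.8 and 7.8 ± 1.1 h. In chow dark-feeding only Srsf10 passed (22.9% of all genes), with its peak at ZT 7.4 ± 1.3 h. No member passed edgeR's threshold in chow ad libitum (4.56% of all genes; 3 members at an unadjusted p under 0.05, 1 by DESeq2) or in HFD light-feeding (0.841% of all genes; 0 members unadjusted, 0 by DESeq2). With title number as a smooth covariate 0 members passed in any group that had one, and with marker scores it was 0 in chow light-feeding, chow dark-feeding and HFD ad libitum.

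Light-feeding on chow was the only one of 3 tests of a difference in rhythm that any member passed. Srsf1 and Srsf10 lay past the threshold (11.3% of all genes), and the rhythm that has to be added to that of chow ad libitum to give that of chow light-feeding had a peak-to-trough size of 0.34 for Srsf1 and 0.52 for Srsf10 on the log2 scale. At ZT 14 Srsf1 had 718.8, 775.1 and 797.4 CPM (lowest, median and highest of 5 libraries) in chow light-feeding and 545.0, 688.4 and 750.1 CPM (5 libraries) in chow ad libitum. At ZT 2 it had 553.3, 612.8 and 663.2 CPM (5 libraries) in chow light-feeding and 637.0, 712.1 and 805.8 CPM (7 libraries) in chow ad libitum. The order of these groups was thus opposite at the 2 times. Srsf10 medians showed the same turn, at 116.4 CPM in chow light-feeding and 103.9 CPM in chow ad libitum at ZT 14, and at 90.2 and 111.5 CPM at ZT 2. Title number was not a covariate of this test. In chow ad libitum at ZT 14, the libraries with the lowest title numbers had 614.4 and 545.0 CPM of Srsf1, and the others 688.4 to 750.1 CPM. The part of title number in these differences was not tested. With marker scores as covariates neither gene passed. Light-feeding against ad libitum on HFD gave 0 members past edgeR's threshold (10.6% of all genes; 1 member unadjusted, 0 by DESeq2), and diet ad libitum gave 0 (0% of all genes; 0 members and 2305 genes unadjusted, 0 members and 42 genes by DESeq2).

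**Figure D4:**
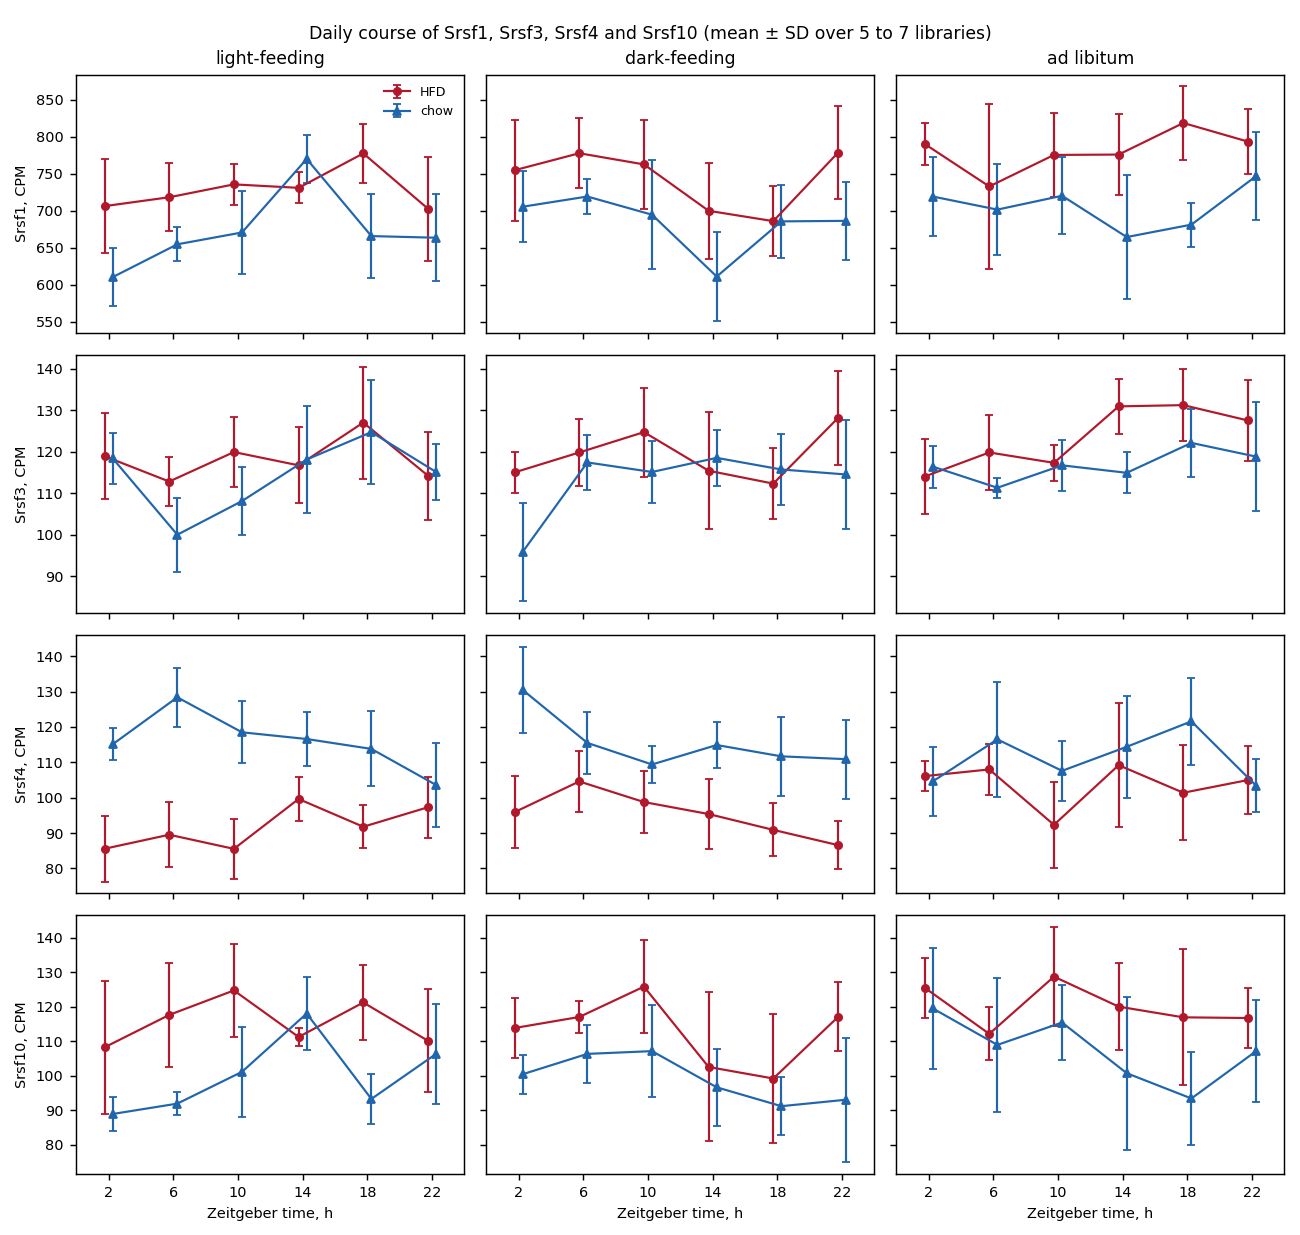
CPM (vertical, axes not starting at 0) of Srsf1, Srsf3, Srsf4 and Srsf10 against Zeitgeber time in hours, by schedule, for HFD (circles) and chow (triangles); points are means and bars the SD of 5 to 7 libraries. Srsf4 lies lower on HFD at each time in light- and dark-feeding, and chow light-feeding has its highest Srsf1 mean, 770.2 CPM, at ZT 14.

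Members also varied together among libraries of the same group and time. After group and time means were removed, 37 of 45 pairs had a positive Pearson correlation of log2 CPM over 200 libraries, with a median of 0.37. These points share their library, so depth and cell mixture enter both members of a pair. Srsf6 and Srsf7 were the closest pair (0.75), followed by Srsf1 with Srsf7 (0.69), Srsf1 with Srsf10 (0.66) and Srsf2 with Srsf6 (0.65). Srsf4 and Srsf10 were the most opposed (-0.48), and Srsf9 with Srsf10 came next (-0.34). The pair that stood apart between diets was also opposed within groups. Title number was not removed from these correlations, and among HFD ad libitum libraries Srsf4 differed with it, as given above. Srsf2 correlated with the oligodendrocyte marker score at 0.59 and with the neuronal score at -0.58, and Srsf6 at 0.46 and -0.48. Srsf4 and Srsf10 had -0.03 and -0.08 with the oligodendrocyte score and -0.23 and 0.03 with the neuronal score. With the mural score they went in opposite directions, Srsf4 at 0.34 and Srsf10 at -0.28, and likewise with the endothelial score, at 0.24 and -0.19. The part of cell mixture, and that of title number, in these correlations was not tested.

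**Figure D5:**
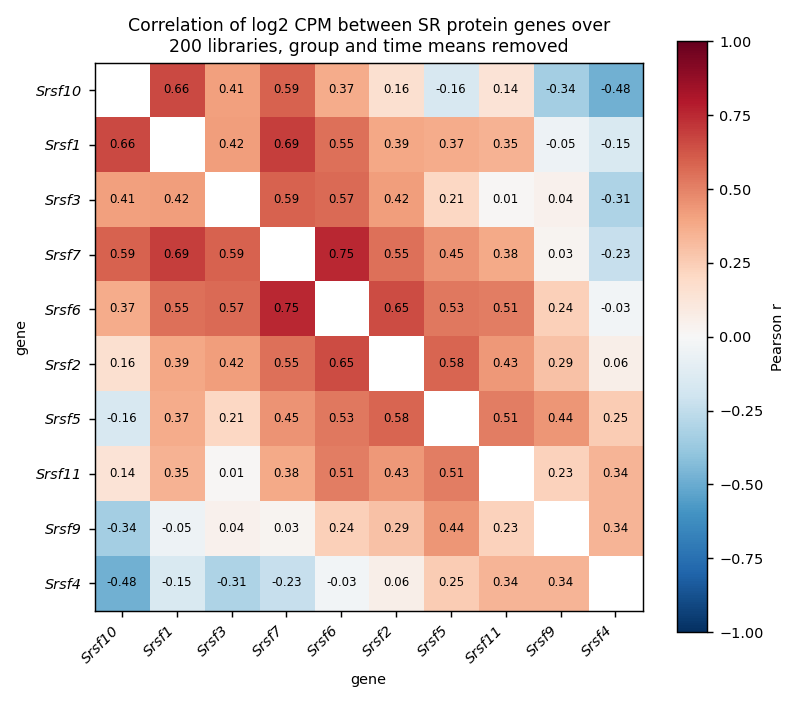
Pearson correlation of log2 CPM for each pair of SR protein genes over 200 libraries, with the mean of each group and time removed; both axes list the genes, and colour runs from -1 to 1. Srsf1, Srsf3, Srsf6 and Srsf7 form a block of positive values up to 0.75, and Srsf4 with Srsf10 is the lowest at -0.48.

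Over the 36 means of group and time, the genes whose pattern was most like the average of the members were Clk4 (Pearson r 0.895), which encodes a nuclear kinase of SR proteins, Brms1l (0.858), Rbm25 (0.856), Ppp1r12a (0.855) and Dennd6a (0.845). Each member is itself part of that average, which partly fixes its r, so members' values are not comparable with those of outside genes; they were highest for Srsf7 (0.884) and Srsf6 (0.841) and lowest for Srsf4 (-0.114).

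Other genes of the splicing pathway were then read against the background of each diet comparison, with p-values from edgeR adjusted over all 14393 genes. That background was 50.3% of all genes in light-feeding, 45.9% in dark-feeding and 20.1% ad libitum. Of the 10 genes for SR kinases and the importer, 4 passed in light-feeding (3 higher, 1 lower on HFD), 6 in dark-feeding (all higher) and 3 ad libitum (all higher), which is below the 50.3% of all genes in light-feeding and above the 45.9% and 20.1% in the others. Their median log2 fold changes were 0.04, 0.09 and 0.03, beside -0.01 for all genes in each schedule. The kinase gene Srpk2 was higher on HFD in all 3 schedules, with 150.5 ± 10.0 CPM on HFD and 142.4 ± 8.28 CPM on chow in light-feeding (adjusted p 0.0016). The importer gene Tnpo3 averaged 33.4 ± 2.96 CPM on HFD and 29.1 ± 2.55 CPM on chow in light-feeding (log2 fold change 0.20 ± 0.03, adjusted p 7.6e-08). Clk4 rose by 0.10 ± 0.03 in dark-feeding (adjusted p 0.0023) and by 0.10 ± 0.03 ad libitum (adjusted p 0.0088). With marker scores of other cell types as covariates, 0 of the 10 passed in any schedule, where 1261, 196 and 130 of all genes did in light-feeding, dark-feeding and ad libitum.

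Of 26 SR-related genes tested, 16 passed in light-feeding (6 higher, 10 lower), 17 in dark-feeding (11 and 6) and 7 ad libitum (4 and 3), each above the share of all genes (50.3%, 45.9% and 20.1%). Son, the scaffold of nuclear speckles, averaged 1018 ± 80.8 CPM on HFD and 886.2 ± 117 CPM on chow in dark-feeding (adjusted p 9.8e-07). Tra2a, a splicing activator that works with SR proteins, had 674.4 ± 81.4 CPM on HFD and 579.2 ± 80.6 CPM on chow (adjusted p 1e-05). U2af1, which reads the 3′ splice site, fell by 0.24 on the log2 scale, with 22.6 ± 2.01 CPM on HFD and 26.8 ± 3.89 CPM on chow in dark-feeding (adjusted p 7.9e-06). Of 27 hnRNP genes, many of which oppose SR proteins, 10, 10 and 4 passed in light-feeding, dark-feeding and ad libitum, each below the share of all genes, and Hnrnpdl was higher in each, by 0.16 ± 0.03, 0.19 ± 0.03 and 0.14 ± 0.03 (adjusted p 1.9e-06, 9.1e-07 and 0.0013). The 48 core spliceosome genes gave 26 (11 higher, 15 lower), 24 (9 and 15) and 18 (4 and 14), near the share of all genes in light- and dark-feeding and above it ad libitum. Ddx23, a helicase gene of that list, fell by 0.16, 0.17 and 0.19 in the 3 schedules (adjusted p 1.9e-06, 6.5e-07 and 2.9e-06). With marker scores as covariates the SR-related genes gave 8, 0 and 0 in light-feeding, dark-feeding and ad libitum, the hnRNP genes 2, 1 and 0, and the core spliceosome genes 7, 0 and 3.

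Of 17 nonsense-mediated decay genes 12, 9 and 5 passed in light-feeding, dark-feeding and ad libitum (50.3%, 45.9% and 20.1% of all genes), with Smg6 up by 0.19 ± 0.02 (adjusted p 1.4e-09) and Upf3a down, at -0.23 ± 0.04 (adjusted p 7.9e-06), in light-feeding. Paraspeckle genes gave 4, 1 and 1 of 6, and Sfpq was higher in all 3. Temperature-responsive genes gave 2, 3 and 0 of 8, and core clock genes 8, 5 and 3 of 19; every one of these temperature and clock counts was below the share of all genes. With marker scores the decay genes gave 1, 0 and 0, paraspeckle genes 1, 0 and 0, temperature-responsive genes 0 in each and clock genes 3, 0 and 0. Srsf12, the other SRSF gene tested, averaged 1.46 ± 0.47 CPM on HFD and 1.74 ± 0.48 CPM on chow in dark-feeding (adjusted p 0.032) and did not pass in the others. For the rhythm common to all groups, against 41% of all genes, 19 of 19 clock genes and 7 of 8 temperature-responsive genes passed, as did 6 of 10 kinase and importer genes, 10 of 26 SR-related, 13 of 27 hnRNP, 15 of 48 spliceosome, 7 of 17 decay and 2 of 6 paraspeckle genes, and 0 of 1 for Srsf12. Clk1, a kinase of SR proteins, peaked at ZT 15.8 with 0.26 between peak and trough (adjusted p 2.1e-11). The cold-induced genes Cirbp and Rbm3 peaked at ZT 6.5 and 7.8 (adjusted p 2.2e-12 and 1.9e-11), and the chaperone genes Hspa8 and Hsph1 at ZT 18.5 and 17.9 (adjusted p 2.8e-12 and 2.7e-10). On HFD, light-feeding against ad libitum gave 3 of 10 kinase and importer genes (1 higher, 2 lower), 4 of 26 SR-related (1 and 3) and 4 of 27 hnRNP genes (all lower), where 10.7% of all genes passed, so that the SR-related and hnRNP shares were close to it. Clk4 was 1 of the 2 lower kinase genes, with 289.0 ± 22.7 CPM in light-feeding and 304.3 ± 22.7 CPM ad libitum (adjusted p 0.044). With title number as a smooth covariate 0 genes of these 3 lists and 0 of all genes passed.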

How the data were processed

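Of the deposited tables, one held expected counts of 20361 genes in 200 libraries, with 8.03% of its entries not whole (0% for the SR genes). The other held FPKM values that the authors computed for 17611 genes. RNA was enriched for mRNA and sequenced strand-specifically, per the labels' protocols. The submitters' processing notes name the build Rnor_6.0. The sources used here name no aligner or counter. How reads shared with close copies or pseudogenes were divided is not known, so levels of such genes are uncertain. Members and lists were chosen with earlier results of these data known.

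Counts were rounded, scaled by TMM over all libraries, filtered with filterByExpr and fitted in R 4.3.3 with edgeR 4.0.16 (quasi-likelihood test, Benjamini-Hochberg over 14393 genes, adjusted p under 0.05), using the libraries of the groups compared, with time as a factor, or cosine and sine terms of 24 h for rhythms. Standard errors of fold changes came from the F statistic, and those of rhythms from limma 3.58.1 (log2 CPM, prior count 2). Among 461 pairs of libraries within a group and time the lowest chi-square over its degrees of freedom was 2.25, and none was merged. Library totals were 3.78 to 11.64 M counts. The code was tested on simulated data. Alternatives used DESeq2 1.42.0, RLE scaling, no filter, log2(FPKM + 0.1) with limma, scores of 6 marker lists, title number as a spline with 4 degrees of freedom, and leaving out times or 3 libraries whose Per2 stood apart. All members were named; of each other list, up to 4 genes with the smallest adjusted p past the threshold, or up to 2 where none passed; and the 5 genes of at least 5 CPM with the nearest pattern.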

Additional observations from a re-analysis of the deposited data

Results flagged for a closer look

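Of 360 combinations of member, group and time, 23 held a library that lay apart from the others of its group and time, in 18 distinct libraries; chance gives such a library in about 5% of combinations. HFD dark-feeding replicate 7 at ZT 6 was low for 3 members, with 697 CPM of Srsf1 (others 786 to 821), 568 CPM of Srsf5 (674 to 698) and 229 CPM of Srsf7 (262 to 271). Srsf1 was low in HFD ad libitum at ZT 6 (539 CPM, others 763 to 816) and high in chow light-feeding at ZT 10 (778 CPM) and chow dark-feeding at ZT 22 (776 CPM). Srsf2 was low in HFD dark-feeding at ZT 14 (1120 CPM) and chow dark-feeding at ZT 18 (1020 CPM). Srsf4 was high in HFD ad libitum at ZT 6 (121 CPM, others 104 to 106). Srsf5 was low in HFD light-feeding at ZT 10 (574 CPM) and chow ad libitum at ZT 6 (496 CPM), and high in HFD ad libitum at ZT 14 (716 CPM) and chow dark-feeding at ZT 6 (722 CPM).

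Srsf6 was high in HFD ad libitum at ZT 6 (426 CPM) and chow dark-feeding at ZT 18 (436 CPM). Srsf7 had 4 such values in chow dark-feeding, high at ZT 2, 10 and 18 (259, 268 and 251 CPM) and low at ZT 14 (212 CPM). Srsf9 was high in HFD dark-feeding at ZT 2 (36.0 CPM, others 26.0 to 28.1), in chow dark-feeding at ZT 6 (32.4 CPM) and in chow dark-feeding at ZT 18 (36.2 CPM), and Srsf10 was low in chow dark-feeding at ZT 2 (90.5 CPM, others 102 to 104).

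Members also differed between schedules in the interaction tests. The diet difference in light-feeding minus that ad libitum was -0.24 on the log2 scale for Srsf4 and -0.10 for Srsf11. The rhythm of chow light-feeding minus that of chow ad libitum had a peak-to-trough size of 0.34 for Srsf1 and 0.52 for Srsf10. Title number was not a covariate in these tests.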

How the results depend on the processing

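Counts of members past the threshold in 21 comparisons were recomputed under 147 alternatives, and 125 stayed the same or within 1.5 times the reported count. These 125 include counts of 0 that stayed at 0, for which a 1.5-fold range has no meaning, so the total does not measure how stable the other counts were. No paired analysis was possible because the labels give no replicate numbers that could link libraries across groups. With marker scores as covariates the counts were 3, 1 and 0 for diet in light-feeding, dark-feeding and ad libitum, and 0 for dark-feeding on HFD, for the interaction of diet with light-feeding, for the rhythms of chow dark-feeding, chow light-feeding and HFD ad libitum, and for the rhythm difference of light-feeding on chow. From dark-feeding on HFD onward, 7, 0, 461, 0, 660 and 22 of all genes passed in the same order. With title number as a spline the counts were 0 for dark- and light-feeding on HFD and for the rhythms of chow dark-feeding, chow light-feeding, HFD ad libitum and HFD dark-feeding. Of all genes 4, 0, 308, 0, 104 and 34 passed in the same order. Title number was not used for the interactions or the rhythm differences. FPKM gave 5 for diet in light-feeding and 2 for the rhythm of chow dark-feeding. Leaving out ZT 6 gave 4 for diet in light-feeding. Without a filter it was 1 for the interaction of diet with light-feeding and 0 for the rhythm of chow dark-feeding, and DESeq2 gave 1 and 5 for the rhythms of chow ad libitum and HFD ad libitum. Among single members, the light-feeding diet difference of Srsf2 reversed to -0.021 with marker scores and that of Srsf7 to -0.032 with FPKM, while with marker scores Srsf3, not past the threshold, turned to -0.027 and Srsf9 went to -0.185. With FPKM Srsf7 did not pass in light-feeding, in dark-feeding (0.035) or ad libitum (0.045). The cause was not tested. Srsf4 stayed past the threshold under all 11 alternatives in dark-feeding (-0.308 to -0.24) and all 12 in light-feeding (-0.391 to -0.287); ad libitum it ran from -0.124 to -0.063 and passed under 3 of 12. Over all genes the 3 diet counts, 7235, 6603 and 2888, became 1261, 196 and 130 with marker scores in light-feeding, dark-feeding and ad libitum. Gene totals limit what can be said of isoforms, and at the lowest count of 101 counting error was 9.95%.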
